A study of Mus musculus with 3 samples.

Results

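The 8 genes described here encode the vasoactive peptides endothelin and angiotensin, the enzymes and receptors of both, and the nitric oxide synthase of the endothelium. They were taken by name (Edn1, Ece1, Ednra, Ednrb, Agt, Ace, Agtr1a and Nos3), not by their values, and all 8 were among the 27998 genes counted. The counts come from droplet-based single-cell RNA sequencing (scRNA-seq) of non-cardiomyocytes of mouse ventricles, with 1 library for each of 3 phases after transverse aortic constriction (TAC), a ligation of the aortic arch around a needle spacer that loads the left ventricle with pressure. All mice were wild-type C57BL/6JJcl, and the study's methods give males operated at an age of 8 weeks. The healthy library (0 weeks) carries the treatment label of a control, and the adaptive hypertrophy and heart failure libraries were made 2 and 12 weeks after TAC. The atria were removed and the ventricles were digested with collagenase. The cells were filtered, and layers of Percoll removed debris and concentrated the non-cardiomyocytes. No single cell type was sorted, so that the shares of the cell types also depend on which cells survived the digestion and passed these steps. Phase and library cannot be told apart, because each phase is 1 experiment, and no test between phases was possible.

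Endothelin is released by endothelial cells (ECs) as a precursor that an endothelin converting enzyme (Ece1) cuts to the active peptide. The type A receptor (Ednra) on smooth muscle and pericytes drives constriction, while the type B receptor (Ednrb) on ECs is coupled to nitric oxide release and clears the peptide. Angiotensinogen (Agt) is the precursor of angiotensin, the angiotensin converting enzyme (Ace) makes angiotensin II and degrades bradykinin, and the type 1a receptor (Agtr1a) carries most of its vascular and fibrotic actions in rodents. The endothelial synthase (Nos3) makes nitric oxide, which relaxes smooth muscle through soluble guanylate cyclase.

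On the mouse build GRCm38 (GENCODE annotation), all 8 are protein-coding genes, on chromosomes 13 (Edn1, 42301476 to 42307990, and Agtr1a, 30336441 to 30382867), 4 (Ece1, 137862237 to 137965229), 8 (Ednra, 77663031 to 77724464, and Agt, 124556534 to 124569706), 14 (Ednrb, 103814625 to 103844402), 11 (Ace, 105967945 to 105989964) and 5 (Nos3, 24364810 to 24384474). Edn1, Ece1, Ednra, Ace and Nos3 each overlap an annotated gene on the opposite strand, Nos3 the protein-coding Atg9b among them. Agtr1a holds a noncoding gene on its own strand, annotated as lying in an intron. Cell Ranger counts reads in the sense of a gene, and the part of these overlaps in the counts was not tested. The 250 bases before the RefSeq start are shown for 3 genes, because Edn1 and Ace were high and Ednrb was low in the same EC clusters (values further on). They are RefSeq sequence of GRCm38.p6, written from 5′ to 3′ on the strand of the gene, at chr13:42301226-42301475 for Edn1, at chr11:105967698-105967947 for the upstream start of Ace, and at chr14:103843702-103843951 (minus strand) for Ednrb. RefSeq starts can differ from the outer GENCODE bounds given above, and the Ednrb window lies inside those bounds. Capitals mark matches to 4 short motifs searched on both strands.
Edn1: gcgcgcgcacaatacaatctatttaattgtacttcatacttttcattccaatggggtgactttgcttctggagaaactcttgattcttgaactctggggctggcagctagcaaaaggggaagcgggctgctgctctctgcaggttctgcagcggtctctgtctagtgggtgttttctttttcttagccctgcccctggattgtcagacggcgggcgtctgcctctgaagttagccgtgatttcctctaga
Ace: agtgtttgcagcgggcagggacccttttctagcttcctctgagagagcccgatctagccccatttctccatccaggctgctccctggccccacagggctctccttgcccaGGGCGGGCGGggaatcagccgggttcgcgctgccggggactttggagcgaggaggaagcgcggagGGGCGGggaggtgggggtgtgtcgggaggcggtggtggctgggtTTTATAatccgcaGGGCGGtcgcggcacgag
Ednrb: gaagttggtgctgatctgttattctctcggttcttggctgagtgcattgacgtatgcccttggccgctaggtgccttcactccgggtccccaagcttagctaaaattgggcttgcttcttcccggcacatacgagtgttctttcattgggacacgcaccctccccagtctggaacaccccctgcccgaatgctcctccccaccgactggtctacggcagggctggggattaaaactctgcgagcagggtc
The motifs were the GATA site AGATAA, the AP-1 site TGANTCA, the GC box GGGCGG and the TATA box TATAAA, which occur in 9.99%, 6.75%, 32.7% and 12.4% of 32851 promoter windows of this length. The Ace window holds 4 GC boxes, of which 2 overlap, and the reverse of the TATA box (TTTATA) from 31 to 26 bases before the start. The Edn1 and Ednrb windows hold no match, which says only that these letters are not in these windows. The share of G and C was 50.4% for Edn1, 67.2% for Ace and 56.8% for Ednrb. RefSeq windows were matched for 6 of the 8 genes.

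The 3 libraries held 3900, 2239 and 802 cell barcodes and 12309881, 4472377 and 1723863 unique molecular identifiers (UMIs, each counting 1 captured RNA molecule). After 8, 8 and 10 cells with under 200 genes were removed, 6915 cells remained, at a median of 2589, 1495 and 1434 UMIs, and 9 barcodes occurred in 2 libraries. Cells were given a class by the summed log-normalized counts of 8 marker genes per class, none of them among the 8 genes. A log-normalized count is the log of 1 plus the UMIs scaled to the total of the cell. This gave 3200 ECs, 336 smooth muscle cells (SMCs), 47 pericytes, 1483 fibroblasts (FBs), 1308 blood cells and 88 neural cells. A further 307 cells had markers of more than 1 lineage and 146 had too few. The SMC and pericyte classes overlap: the pericyte markers summed to 20076 CPM (the count of a gene per 1e+06 UMIs) in pericytes but also to 5127 CPM in SMCs. A level is the CPM of a gene after its UMIs and the total were added up within a class. Every interval is an exact 95% interval of the counting error, and differences between hearts are not in it. Intervals of levels and ratios take each UMI as independent, so they are too narrow where UMIs gather in few cells.

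Nos3, Edn1 and Ece1 were highest in ECs, Ace in FBs and Ednra in mural cells (SMCs and pericytes), while Ednrb was found in ECs, pericytes and healthy blood cells (see the plot of levels by class). Agt and Agtr1a were close to the limit of detection, with 23 and 11 UMIs in all cells together. Of the 8 genes, 6 had at least 20 UMIs for a comparison of the leading large class with all other classes, and all 6 were more than 1.5-fold higher there. The leading class was taken from the values. Of 12979 genes, 69.7% were past that fold in at least 1 of the 4 large classes (ECs, SMCs, FBs and blood cells), with 23.4% in ECs, 16.6% in SMCs and 23.9% in FBs. The 1.5-fold limit is a rule of size and not a test.

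**Figure D1:**
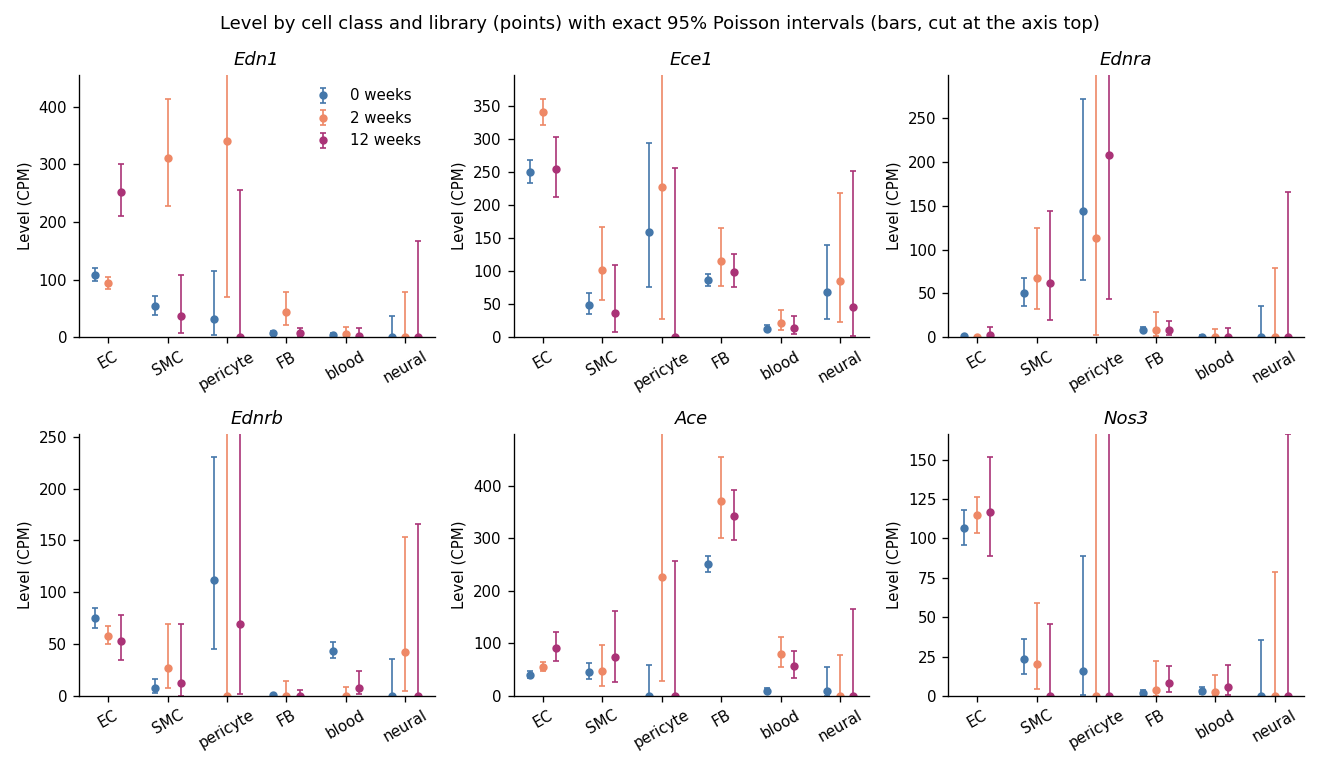
Levels of 6 of the 8 genes by cell class and library, as CPM of summed UMIs on a linear axis from 0. Points are the 3 libraries, colored by phase, and bars are exact 95% Poisson intervals (counting error only, cut where they pass the top of the axis). Nos3 sits between 106 and 117 CPM in ECs of every library, Ace is highest in FBs and Ednra in pericytes and SMCs.

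Among the ligand genes, Edn1 was mainly an EC transcript. Its level in ECs was 108 CPM in the healthy library, 93.1 CPM at 2 weeks and 252 CPM at 12 weeks, and ECs held 83.6% of the Edn1 UMIs of all classes. In SMCs it was 53.6, 311 and 37.1 CPM, in FBs 7.59, 43.4 and 6.45 CPM, and in blood cells 4.07, 4.85 and 2.69 CPM. Pericytes had 2, 3 and 0 UMIs. The ECs were above every other large class at 0 and 12 weeks, but not at 2 weeks, where the SMC level was the higher. Over the 3 libraries the EC level was 6.79-fold that of all other classes (5.71 to 8.10), with 9.48-fold, 1.31-fold (0.992 to 1.74) and 35.0-fold in the healthy, 2-week and 12-week libraries, and 1.25-fold that of SMCs (1.01 to 1.57). Without the 2-week library the ratio to all other classes was 11.6, and without the healthy library 3.20. An Edn1 UMI was found in 8.34% of ECs (7.41 to 9.36) at a median depth of 1763 UMIs, against 1.07% of blood cells (0.586 to 1.79) at 2408 UMIs. Cells with at least 1000 UMIs were also thinned to 1000 UMIs, and shallower cells were left out of the thinned shares. That left out 571 of 3200 ECs (0, 464 and 107 at 0, 2 and 12 weeks) and 106 of 1308 blood cells. The thinned shares, here and below, thus weigh the healthy library more. They were 5.71% in ECs and 0.582% in blood cells.

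The SMC level of Edn1 rested on few cells that also carried EC markers. At 2 weeks, 46 UMIs lay in 4 of 45 SMCs, 26 of them in 1 cell, and in the healthy library 44 UMIs lay in 18 of 268 SMCs. The 8 EC markers summed to 1636 CPM in the SMCs with Edn1 at 2 weeks and to 455 CPM in those without it. In healthy SMCs these sums were 1482 and 397 CPM, against 5943 CPM in ECs. The SMCs with Edn1 also had more UMIs, with a median of 7600.5 against 1852 at 2 weeks and 4792 against 2484 in the healthy library. With the log-normalized sum of another lineage at most 1/3 of the SMC sum, no Edn1 UMI remained in SMCs at 2 weeks.

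Agt, the precursor of angiotensin, had 16 UMIs in the 6 classes, of which 9 were in FBs, 5 in SMCs and 2 in ECs. Its FB level was 0.759 CPM in the healthy library (3 UMIs), 19.7 CPM at 2 weeks (5 UMIs in 5 of 88 cells) and 1.61 CPM at 12 weeks (1 UMI). No Agt UMI was found in 1308 blood cells or 47 pericytes, which allows up to 0.859 CPM and 34.9 CPM. These counts are too low to order the phases.

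Ece1, the converting enzyme of endothelin, had UMIs in all 6 classes. Its EC level was 250, 340 and 254 CPM at 0, 2 and 12 weeks, and 40.2% of ECs had a UMI (22.6% after thinning), against 3.13% of blood cells (0.749% after thinning), the lowest share. The part of free RNA in the low levels was not tested. Pericytes followed at 140 CPM (12 UMIs), FBs at 88.9 CPM, neural cells at 69.7 CPM, SMCs at 55.3 CPM and blood cells at 13.8 CPM over the 3 libraries. ECs were 2.10-fold above pericytes (1.2 to 4.06) and SMCs 4.02-fold above blood cells (2.69 to 6.02), while the intervals of the ratios between neighbors from pericytes to SMCs all included 1. The EC level was 5.04-fold that of all other classes (4.59 to 5.54), and lay between 4.03-fold and 5.02-fold in the single libraries.

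Among the large classes, Ace had its highest level in FBs. Its FB level was 251 CPM in the healthy library, 371 CPM at 2 weeks and 342 CPM at 12 weeks. Over the 3 libraries together, FBs held 72.1% of the Ace UMIs of all classes against 20.5% in ECs. At 2 weeks, with 88 FBs and 1762 ECs, ECs held 58.2% of the Ace UMIs and FBs 28.9%. ECs had 40.6, 55.9 and 90.3 CPM, SMCs 45.1, 47.3 and 74.2 CPM, and blood cells 9.98, 80.0 and 56.5 CPM. FBs were above every other large class in all 3 libraries, while ECs and SMCs did not differ beyond counting error (1.07-fold, 0.797 to 1.47). FBs were 6.43-fold above all other classes (5.79 to 7.14), from 8.79-fold in the healthy library to 4.70-fold at 12 weeks. An Ace UMI was found in 49.2% of FBs (23.4% after thinning) and in 1.14% of neural cells (1.27% after thinning), at median depths of 2833 and 1781 UMIs.

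Of the 2 endothelin receptors, Ednra was found mainly in mural cells and Ednrb mainly in ECs, with 121 UMIs in blood cells and 8 in pericytes. Ednra was at 151 CPM in pericytes (13 UMIs in 9 of 47 cells), at 53.4 CPM in SMCs (56 UMIs), at 8.29 CPM in FBs (40 UMIs) and at 0.693 CPM in ECs (5 UMIs in 3200 cells). In SMCs the level was 50.0, 67.5 and 61.8 CPM at 0, 2 and 12 weeks and in pericytes 144, 113 and 208 CPM, with intervals that overlap between the phases. Pericytes were 2.84-fold above SMCs (1.42 to 5.25), SMCs 6.44-fold above FBs (4.21 to 9.91) and FBs 12-fold above ECs (4.72 to 38.8). SMCs were 14.3-fold above all other classes (9.73 to 20.9), and 28.3-fold without the healthy library. A UMI of Ednra was seen in 14.9% of SMCs at a median of 2597 UMIs (5.30% after thinning) and in 0.156% of ECs at 1763 UMIs (0.0761% after thinning).

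Ednrb was at 74.7, 58.2 and 53.3 CPM in ECs at 0, 2 and 12 weeks, and the highest class sum was that of pericytes, at 93.1 CPM from 8 UMIs, which was not above ECs within counting error (1.42-fold, 0.610 to 2.82). The 8 EC markers summed to 722 CPM in pericytes, against 5943 CPM in ECs, and the part of EC RNA in the pericyte level was not tested. ECs held 76.7% of the Ednrb UMIs of all classes and blood cells 19.6%. FBs had 2 UMIs in 1483 cells (0.414 CPM). The share of ECs with a UMI was 11.4% (6.09% after thinning), against 0.135% of FBs, whose cells were the deeper ones (a median of 2833 UMIs, and 1763 in ECs). ECs were 4.38-fold above all other classes (3.63 to 5.32) and 10.4-fold without the healthy library, and blood cells were the class next to them among those with over 20 UMIs.

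Agtr1a had 7 UMIs in the 6 classes, of which 5 were in FBs, 1 in ECs and 1 in neural cells, and all 5 in FBs came from the healthy library (1.27 CPM, 0.411 to 2.95). In SMCs and pericytes, where the angiotensin receptor of vessels is known to act, no UMI was found, which allows up to 2.86 CPM in 336 SMCs and 34.9 CPM in 47 pericytes. The absence of a gene cannot be read from counts this low.

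Nos3 was the most EC-restricted of the 8 genes by its ratio to all other classes. The EC level was 106, 115 and 117 CPM at 0, 2 and 12 weeks, and ECs held 94.3% of the Nos3 UMIs of all classes. SMCs had 21.0 CPM (22 UMIs), pericytes 11.6 CPM (1 UMI), blood cells 3.15 CPM and FBs 2.90 CPM. ECs were 22.2-fold above all other classes (16.6 to 30.4), with 22.6-fold, 20.0-fold and 18.5-fold in the single libraries. Nos3 was seen in 19.6% of ECs (10.0% after thinning) and in 0.944% of FBs (0.348% after thinning), at a median depth of 2833 UMIs in FBs.

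Levels were next compared between phases within a class, where both later phases share the healthy library. At 2 weeks, 0 of 5 genes with at least 20 UMIs in ECs were past 1.5-fold, where 12.8% of 10430 genes were higher and 14.3% lower by that fold. At 12 weeks, 2 of 5 were higher, where 21.7% of 9465 genes were higher, and none of the 5 was lower, where 17.2% were. The median of all genes differed by 0.0891 on the log2 scale in ECs at 12 weeks.

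**Figure D2:**
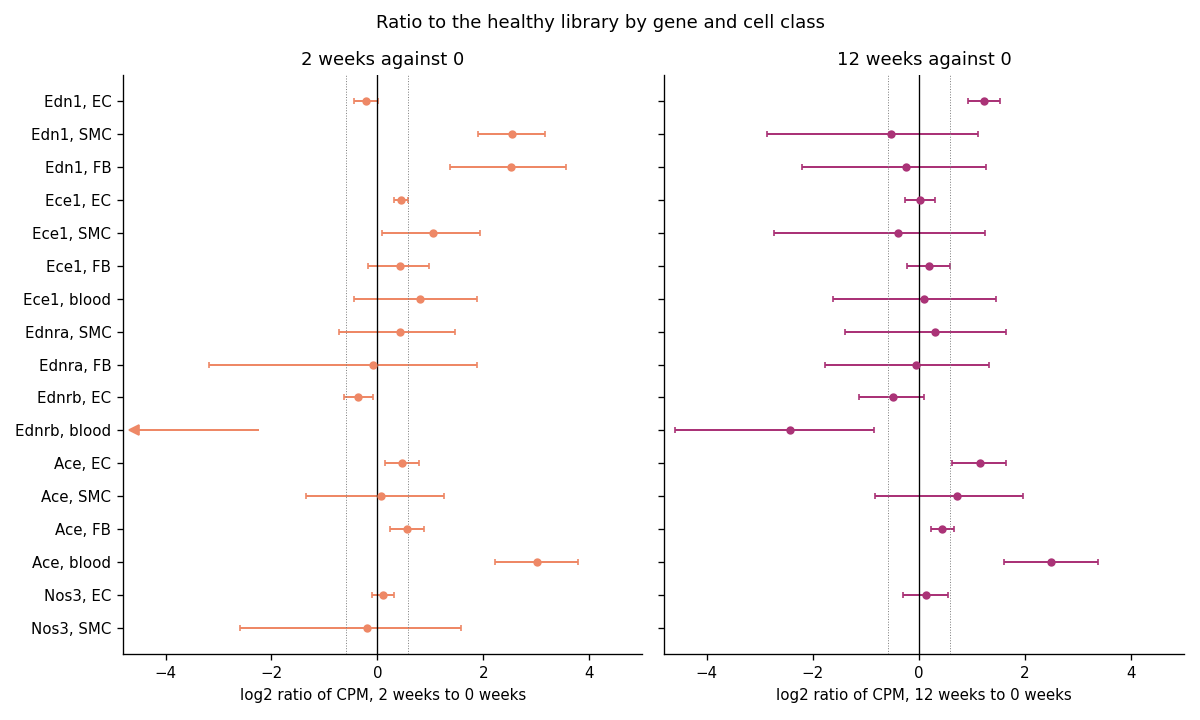
Log2 ratio of the level at 2 or 12 weeks to that of the healthy library in each class, for genes with at least 20 UMIs over both libraries. Bars are 95% conditional binomial intervals, cut at the lower edge for Ednrb in blood cells at 12 weeks, dotted lines mark 1.5-fold in each direction, and the arrow marks Ednrb in blood cells at 2 weeks, which had 0 UMIs. Edn1 and Ace in ECs lie above the upper line at 12 weeks, and Nos3 in ECs lies near 0 at both times.

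In ECs, Edn1 was 0.863-fold its healthy level at 2 weeks (0.740 to 1.01) and 2.34-fold at 12 weeks (1.89 to 2.88). Ace was 1.37-fold at 2 weeks (1.1 to 1.73) and 2.22-fold at 12 weeks (1.54 to 3.14). Ece1 was 1.36-fold at 2 weeks (1.25 to 1.49) and 1.02-fold at 12 weeks (0.836 to 1.23). Ednrb was lower at 2 weeks (0.779-fold, 0.643 to 0.943), with a wider interval at 12 weeks (0.714-fold, 0.457 to 1.07). Nos3 differed by less than counting error at both times, at 1.08-fold (0.931 to 1.25) and 1.1-fold (0.816 to 1.46). Cells with over 10% mitochondrial UMIs were 5.04%, 9.32% and 17.2% of the 3 libraries, and without them Edn1 was 2.28-fold and Ace 2.18-fold at 12 weeks. The 5 erythroid genes summed to 95.6, 310.0 and 6936 CPM in ECs, and with mitochondrial, ribosomal and hemoglobin genes taken out of the total these ratios were 2.30 and 2.18. The dissociation stress genes summed to 22883, 18460 and 17310 CPM in ECs of the 3 libraries and the shear-responsive Klf2 and Klf4 to 5927, 4557 and 4626 CPM, and the part of either in these ratios was not tested.

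In FBs, Ace was 1.48-fold its healthy level at 2 weeks (1.18 to 1.83) and 1.36-fold at 12 weeks (1.17 to 1.58), both within 1.5-fold. Edn1 was the 1 of 4 genes past the limit at 2 weeks, at 5.72-fold (2.58 to 11.7), where 21.6% of 9842 genes were higher and 24.4% lower. That value rests on 11 UMIs in 5 of 88 cells, of which 6 were in 1 cell. At 12 weeks 0 of 4 genes were past the limit in FBs, where 16.2% of all genes were higher and 15.9% lower. In SMCs, Edn1 was 5.79-fold its healthy level at 2 weeks (3.75 to 8.96) in the few cells described above, and Ece1 was 2.08-fold (1.07 to 3.84). These were 2 of 5 genes, where 19.4% of 5230 genes were higher, and 0 of 5 were lower, where 20.6% were. Ednra in SMCs was 1.35-fold at 2 weeks and Ace 1.05-fold. At 12 weeks, with 23 SMCs, Ace was the 1 of 4 genes past the limit, at 1.64-fold (0.567 to 3.93), where 20.7% were, and its interval included 1.

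The phase ratios in blood cells were among the largest for these genes, and the makeup of the blood cells differed between the libraries. At 2 weeks 2 of 3 genes were higher, where 21.7% of 7841 genes were, and 1 was lower, where 24.3% were. At 12 weeks 1 of 3 was higher and 1 lower, where 26.7% and 22.1% were. Ednrb in blood cells had 118 UMIs in 943 healthy cells (43.6 CPM), 0 UMIs in 195 cells at 2 weeks, at least 6.00-fold lower by the limit of 3 counts (interval of the ratio 0 to 0.208), and 3 UMIs in 170 cells at 12 weeks (8.07 CPM, 0.185-fold, 0.0376 to 0.554). Ace was at 9.98, 80.0 and 56.5 CPM, which was 8.02-fold the healthy level at 2 weeks (4.67 to 13.9) and 5.66-fold at 12 weeks (3.04 to 10.4). To place both, the blood cells were split by 7 marker lists of 6 genes that were added after these levels had been seen, so that the split describes the values and is no independent support.

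The Ednrb UMIs of healthy blood cells lay in macrophages, the phagocytes of the tissue. Of the 118 UMIs, 116 were in the macrophage group, at 50.1 CPM (41.4 to 60.1) and in 73 of 822 cells. Within that group, 114 of the 116 were in the 420 cells with a UMI of Folr2 or Lyve1, genes of long-lived resident macrophages, at 88.9 CPM against 1.94 CPM in the other 402 cells (45.9-fold, 12.4 to 383). The 8 EC markers summed to 78.9 CPM in the macrophages with Ednrb and to 61.2 CPM in those without, against 5943 CPM in ECs. Macrophages were 87.2% of healthy blood cells, 51.3% at 2 weeks and 27.1% at 12 weeks, and those with Folr2 or Lyve1 were 51.1%, 12% and 34.8% of the macrophages. At 2 weeks 0 UMIs in 100 macrophages, 12 of them with Folr2 or Lyve1, allow up to 14.6 CPM, at least 3.43-fold lower than the healthy group by the limit of 3 counts, with an interval of the ratio from 0 to 0.364. At 12 weeks 2 UMIs in 46 macrophages gave 20.9 CPM, which was not below the healthy group within counting error (0.416-fold, 0.0498 to 1.54). Among the macrophages with Folr2 or Lyve1 themselves, 0 UMIs in 12 cells at 2 weeks allow up to 81.5 CPM, and 2 UMIs in 16 cells at 12 weeks gave 56.4 CPM (6.83 to 204), so that no difference from the healthy 88.9 CPM (73.4 to 107) was detectable at this depth.

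Among blood cells, the Ace level was highest in the Treml4 monocyte group. The group with the Treml4 list, named for a gene of patrolling monocytes, had 589, 381 and 834 CPM in the healthy, 2-week and 12-week libraries, from 10, 14 and 3 cells. The group with the Ly6c2 list, named for a gene of classical monocytes, had 0 UMIs in 20 healthy cells, 151 CPM in 34 cells at 2 weeks and 238 CPM in 9 cells at 12 weeks. The macrophage group was at 6.05, 9.75 and 20.9 CPM, and no Ace UMI was found in 91 B cells. By number, macrophages held 14 of the 27 Ace UMIs of healthy blood cells, and at 2 weeks 35 cells in no group held 9 of 33, at 141 CPM (64.3 to 267). The Ly6c2 group was 2.12% of blood cells in the healthy library, 17.4% at 2 weeks and 5.29% at 12 weeks, and B cells were 3.29%, 0% and 35.3%. The part of these shares in the ratio of the whole class was not tested.

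**Figure D3:**
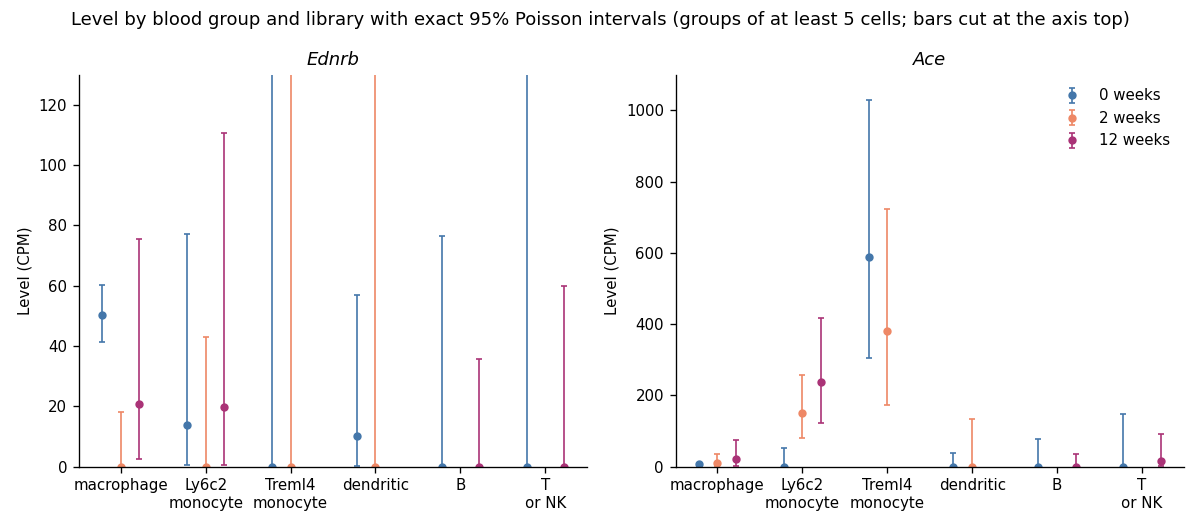
Ednrb and Ace in groups of blood cells by library, as CPM of summed UMIs with exact 95% Poisson intervals, for groups with at least 5 cells in the library (bars are cut at the top of the axis). Ednrb sits at 50.1 CPM in healthy macrophages, and Ace is highest in the Treml4 monocytes of the healthy and 2-week libraries, at 589 and 381 CPM.

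ECs were then clustered without the 8 genes and their pathway genes, which gave 12 clusters. Clusters were named from marker lists as capillary-like (1687 cells), arterial-like (809 cells, clusters 1 and 5), venous-like (349), endocardial-like (61), proliferative-like (53) and lymphatic-like (47). Cluster 1, with 526 of the arterial-like cells, had 5 of 8 arterial markers detected and 1 of them, Hey1, among its leading genes. Cluster 5 had 8 detected and 2 among its leading genes. Cluster 7 (112 cells) had cardiomyocyte genes among its leading genes and stays unnamed. Cluster 8 (82 cells) stays unnamed as well: it was led by Gkn3, Cytl1, Mgp and Clu, and had 7 of 8 arterial markers detected, but none of them among its leading genes and 1 endocardial marker there.

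**Figure D4:**
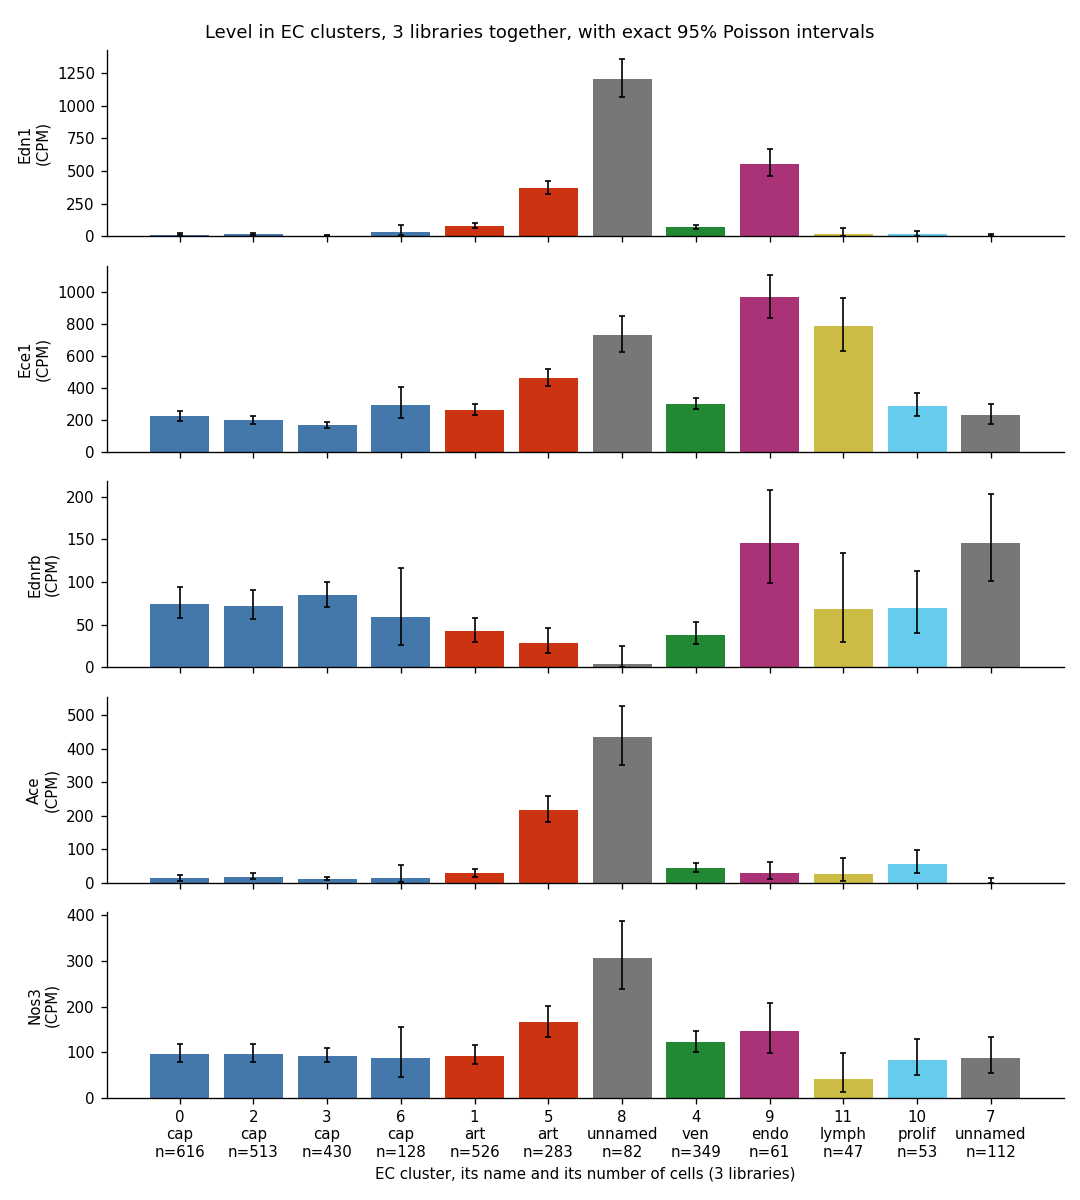
Levels of 5 genes in the 12 EC clusters over the 3 libraries together, as bars of CPM from 0 with exact 95% Poisson intervals (cap, art, ven, endo, lymph and prolif stand for capillary-, arterial-, venous-, endocardial-, lymphatic- and proliferative-like). Cluster 8 is highest for Edn1 (1204 CPM), Ace (434 CPM) and Nos3 (305 CPM) and lowest for Ednrb (4.43 CPM), and the endocardial-like cluster is highest for Ece1 (967 CPM).

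Edn1 differed widely between EC groups. It was at 11.5 CPM in capillary-like ECs, 69.7 CPM in venous-like, 198 CPM in arterial-like, 557 CPM in endocardial-like ECs and 1204 CPM in cluster 8, where 59.8% of cells had a UMI. In each library the order from capillary-like through venous-like and arterial-like to cluster 8 was the same, with 6.58, 47.9, 161 and 1168 CPM in the healthy library, 14.5, 73.6, 203 and 1404 CPM at 2 weeks and 25.1, 194, 309 and 1012 CPM at 12 weeks. The venous-like value at 12 weeks rests on 11 UMIs in 2 of 28 cells. Arterial-like ECs were 17.2-fold above capillary-like ECs (12.4 to 24.2), with 24.5-fold, 14-fold and 12.3-fold in the single libraries, and cluster 8 was 105-fold above them (75.6 to 148). Within the arterial-like group, cluster 5, with the arterial gene Gja4 among its leading genes, was at 369 CPM and cluster 1 at 83.0 CPM.

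Ace followed a like order among EC groups, apart from the endocardial-like one. It was at 13.9 CPM in capillary-like, 43.4 CPM in venous-like and 105 CPM in arterial-like ECs, at 218 CPM in cluster 5 and at 434 CPM in cluster 8. Arterial-like ECs were 7.51-fold above capillary-like ECs (5.45 to 10.5) and cluster 8 was 31.1-fold above them (22.0 to 44.5). Endocardial-like ECs, with 6 UMIs, were at 28.3 CPM (2.03-fold, 0.713 to 4.73). In cluster 8 the level was 312, 702 and 307 CPM at 0, 2 and 12 weeks, beside FB levels of 251, 371 and 342 CPM, and the intervals of the 2 were apart at 2 weeks only.

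Ednrb was lower in arterial-like and venous-like ECs and in cluster 8 than in capillary-like ECs. It was at 77.7 CPM in capillary-like ECs, 36.7 CPM in arterial-like, 38.4 CPM in venous-like and 28.8 CPM in cluster 5, and cluster 8 had 1 UMI in 82 cells (4.43 CPM). Arterial-like ECs were at 0.472-fold (0.347 to 0.634) and venous-like ECs at 0.494-fold (0.342 to 0.694) of the capillary-like level. The venous-like value differed between the libraries, at 0.755-fold (0.476 to 1.15), 0.246-fold (0.110 to 0.481) and 0.526-fold (0.1 to 1.77) at 0, 2 and 12 weeks, and it was 0.284-fold without the healthy library and 0.724-fold, no longer past 1.5-fold, without the 2-week library. Endocardial-like ECs, at 146 CPM, were 1.88-fold above it (1.26 to 2.73). Cluster 7 was at the same 146 CPM of Ednrb and had no Edn1 UMI. Of the 118 Edn1 UMIs of endocardial-like ECs, 43 lay in 1 cell, and at 2 weeks 2 UMIs in 8 cells gave 148 CPM of Edn1.

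Ece1 was at 195 CPM in capillary-like, 301 CPM in venous-like, 343 CPM in arterial-like, 731 CPM in cluster 8, 785 CPM in lymphatic-like and 967 CPM in endocardial-like ECs. Lymphatic-like ECs thus combined high Ece1 (4.03-fold above capillary-like ECs, 3.21 to 5.01) with 2 Edn1 UMIs (17.1 CPM). Nos3 went from 95.1 CPM in capillary-like to 122 CPM in arterial-like and in venous-like ECs, 146 CPM in endocardial-like ECs and 305 CPM in cluster 8 (3.21-fold, 2.44 to 4.17). Lymphatic-like ECs had 42.7 CPM of Nos3 from 5 UMIs (0.449-fold, 0.145 to 1.06). Arterial-like against capillary-like ECs, 3 of 5 genes were more than 1.5-fold higher and 1 was lower, where 13.2% of 9784 genes were higher and 9.47% lower. Venous-like ECs had 3 of 5 higher and 1 lower (13.5% and 12.6% of 9590 genes), and cluster 8 had 4 of 5 higher and 1 lower (21.4% and 30.2% of 9223 genes). Endocardial-like ECs had 5 of 5 higher and 0 lower (25% and 30.8% of 9233 genes), Ace with an interval that included 1. Of these 61 cells 51 came from the healthy library, and without it Edn1 was 12.5-fold instead of 48.3-fold above capillary-like ECs and Ace had no UMI.

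The share of each EC group differed between the libraries. Cluster 8 gave 2.97%, 2.10% and 11.4% of EC UMIs at 0, 2 and 12 weeks, from 38, 25 and 19 cells, and it held 32.1%, 31.7% and 45.5% of the Edn1 UMIs of ECs. Cluster 5 gave 6.28%, 9.37% and 13.1% of EC UMIs. Endocardial-like ECs were 51 of 1130 healthy ECs, where they held 31.9% of the Edn1 UMIs, but 8 of 1762 at 2 weeks and 2 of 308 at 12 weeks. Within cluster 8, Edn1 was 1.2-fold its healthy level at 2 weeks (0.911 to 1.59) and 0.867-fold at 12 weeks (0.619 to 1.2). Within cluster 5 it was 1.01-fold and then 1.93-fold (1.28 to 2.88), and in venous-like ECs 1.54-fold and 4.05-fold (1.75 to 8.87). Ace within cluster 8 was 2.25-fold at 2 weeks (1.41 to 3.64) and 0.985-fold at 12 weeks (0.511 to 1.84).

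**Figure D5:**
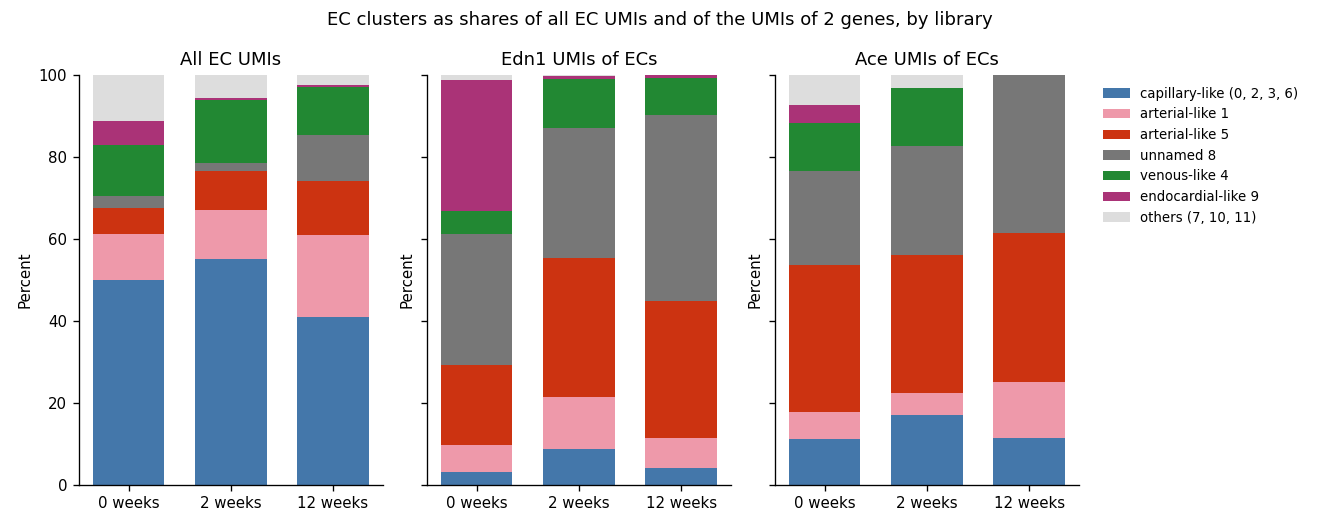
Share of EC UMIs and of the EC UMIs of Edn1 and Ace that each EC group gave in the 3 libraries, in percent. Cluster 8 gives 11.4% of EC UMIs at 12 weeks against 2.97% in the healthy library, and 45.5% against 32.1% of the Edn1 UMIs of ECs.

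With each cluster given its healthy share of EC UMIs, which was computed after the values had been seen, the EC ratio at 12 weeks went from 2.21 to 1.34 for Edn1 and from 2.21 to 1.2 for Ace over the 10 clusters with cells at both times. At 2 weeks, over all 12 clusters, it went from 0.863 to 0.906 for Edn1 and from 1.37 to 1.42 for Ace. Over the 10 clusters with at least 10 cells at 0 and 2 weeks, it went from 1.192 to 1.203 for Edn1. For Ace it went from 1.37 to 1.48 over these clusters. Left out were cluster 6 and the endocardial-like cluster, so the side of 1 for Edn1 at 2 weeks depended on them. Over the 7 clusters with at least 10 cells at 0 and 12 weeks, the same step took Edn1 from 2.93 to 1.57 and Ace from 2.12 to 1.28. It took Nos3 at 12 weeks from 1.09 to 0.717 over the clusters with cells at both times and from 1.12 to 0.822 over these 7. Nos3 at 12 weeks was 0.764-fold in capillary-like (0.397 to 1.35), 0.865-fold in arterial-like (0.486 to 1.46) and 0.695-fold in venous-like ECs (0.217 to 1.73). In cluster 8 it was 1.45-fold (0.776 to 2.68), and all these intervals included 1. The Ece1 ratio at 2 weeks was the larger with shares held, at 1.53, and Ece1 was higher at 2 weeks within capillary-like (1.72-fold, 1.47 to 2.02), arterial-like (1.97-fold, 1.61 to 2.43), venous-like (1.49-fold, 1.16 to 1.93) and lymphatic-like ECs (2.27-fold, 1.34 to 3.70) and in cluster 8 (3.26-fold, 2.28 to 4.72), but not beyond counting error in endocardial-like (0.607-fold, 0.258 to 1.22, 8 cells at 2 weeks) or proliferative-like ECs (1.03-fold, 0.558 to 1.82). At 12 weeks the Ece1 level was 0.981-fold in capillary-like and 0.599-fold in cluster 8, both with intervals that included 1, and 1.31-fold in arterial-like (0.921 to 1.84) and 1.67-fold in venous-like ECs (1.00 to 2.67). Ednrb in venous-like ECs was at 62.3, 17.4 and 52.9 CPM, from 26, 9 and 3 UMIs. Whether the shares of the groups differ between hearts of 1 phase cannot be seen with 1 library each.

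The other genes of these pathways were taken from 3 lists, of 5 endothelin, 18 angiotensin and 23 nitric oxide genes, of which 2, 9 and 20 had enough UMIs to name the class where they were highest. Of the endothelin list, Edn2, Edn3 and Ecel1 had no UMI, so that Edn1 was the 1 endothelin ligand detected. Ece2, a relative of Ece1, was highest in FBs at 18.2 CPM, and Mme (neprilysin, which degrades endothelin) had 83 of 93 UMIs in FBs. Of the angiotensin list, Ren1 (renin) and Agtr1b had no UMI, and Agtr2 and Mas1 had 1 each. Atp6ap2, the prorenin receptor, was at 126 CPM in FBs and 123 CPM in blood cells, Prcp at 164 CPM in blood cells and 140 CPM in ECs, Anpep at 45.2 CPM in FBs and Enpep at 37.2 CPM in SMCs. In FBs, where Ace was at 269 CPM, Agt was at 1.87 CPM.

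Of the 20 genes of the nitric oxide list, 5 were highest in ECs, 4 in FBs, 3 each in SMCs, pericytes and blood cells and 2 in neural cells. The share of all genes that were highest in each class was not computed, so these counts only describe the list. Small classes were often high: of 12979 genes, 24.4% were past 1.5-fold above all other classes in pericytes and 27.9% in neural cells. Gucy1a3 and Gucy1b3, the subunits of soluble guanylate cyclase, were at 682 and 386 CPM in SMCs and at 570 and 524 CPM in pericytes, where Nos3 had 22 UMIs and 1 UMI. Prkg1 (the kinase that cyclic GMP activates) was at 70.5 CPM and Pde5a (which degrades cyclic GMP) at 85.8 CPM in SMCs. Cav1 (caveolin, which binds and holds Nos3) was at 1690 CPM and Nostrin at 71.2 CPM in ECs. Of the other synthases, Nos1 had 2 UMIs and Nos2, the inducible form, had 258 of 266 UMIs in ECs (35.7 CPM).

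The lists were also counted between phases, beside the shares of all genes past 1.5-fold. In ECs these shares were 12.8% higher and 14.3% lower at 2 weeks, and 21.7% and 17.2% at 12 weeks. At 2 weeks, 0 of 18 measured genes of the nitric oxide list were higher and 6 lower in ECs, with a median of -0.05 on the log2 scale against 0.01 for all genes. The lower ones included Gucy1b3 (0.151-fold, 0.0573 to 0.336) and Gucy1a3 (0.254-fold, 0.145 to 0.425), both highest in mural cells. The SMC markers summed to 158, 99.6 and 125 CPM and the pericyte markers to 155, 76.8 and 129 CPM in ECs of the 3 libraries, and their part in these ratios was not tested. Of the angiotensin list 1 of 8 was higher and 1 lower in ECs at 2 weeks, Prcp being the higher (1.53-fold, 1.34 to 1.75). At 12 weeks 2 of 17 nitric oxide genes were higher in ECs and 3 lower, Ass1 (which regenerates the substrate of Nos3) among the higher (2.22-fold, 1.44 to 3.34). In the 88 FBs at 2 weeks 8 of 19 nitric oxide genes were higher, where 21.6% of all genes were, and 2 were lower, where 24.4% were. Ddah1 (5.65-fold, 3.68 to 8.51) and Gch1 (3.90-fold) were among the higher. The median was 0.16 against -0.02 for all genes, and 0.61 over the 16 list genes with at least 50 UMIs.

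Genes with the most similar pattern over the 15 sums of a class and library with at least 20 cells were named for 5 of the 8, by Pearson's correlation of log2(CPM + 10). The sums of 1 library share its depth, and the correlation is a description over few points. For Nos3 these were Clec1a, Clic5 and Abcb1a (each 0.98), for Ece1 Eng (0.96), Hdac7 (0.96) and Efnb1 (0.95), and for Edn1 Fgfr3 (0.90), Alpl (0.89) and Epas1 (0.89). For Ace they were Adamtsl4 (0.90), Gstt3 (0.89) and Vkorc1l1 (0.88), and for Ednrb Ipo11 (0.87), Sult1a1 (0.83) and Tgs1 (0.82).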

How the data were processed

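Non-cardiomyocytes of 3 libraries, 1 per phase, were analyzed. The authors counted UMIs per gene and cell with Cell Ranger 2.0.0 on mm10 (submitters' processing notes) and deposited these raw counts, without normalization, with the lists of genes and barcodes. The weeks come from the study's methods, and other experiments of the study were not analysed here.

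Cells with under 200 genes were dropped. A cell took the class whose 8 markers had the largest sum of log-normalized counts (log of 1 plus UMIs scaled to the total of the cell). It needed at least 2 distinct markers. The log-scale sum of any other lineage had to be at most 50% of the leading sum (SMC and pericyte counting as 1 lineage). Scrublet (scanpy 1.11.5) called 33 doublets (0.477% of cells), too few to be relied on, so no cell was removed by it, and in 254 cells the sum of another lineage was between 40% and 60% of the leading sum. ECs were clustered in Seurat 5.3.0 (anchors, 2000 features, 30 dimensions, 20 neighbors, resolution 0.8) without the 8 genes and the 46 pathway genes. Ratios of summed UMIs, computed with scipy 1.17.1, needed at least 20 UMIs and have conditional binomial intervals, levels have exact Poisson and shares Clopper-Pearson intervals. A count of 0 was given the limit of 3 counts. The ratio code was tested on simulated data.

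The members, lists and comparisons were chosen with earlier results of these data known. Named genes were the 8 members, the pathway genes and, for members with at least 200 UMIs, the 3 genes of most similar pattern. The blood lists, the Folr2 or Lyve1 split and the held cluster shares were added after values had been seen. Alternatives were other gates, thinning to 1000 UMIs, other clusterings and leaving out each library.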

Additional observations from a re-analysis of the deposited data

Results flagged for a closer look

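Cells with markers of more than 1 lineage entered no comparison, and 209 of the 307 had EC and mural markers. In these mixed cells Edn1 was at 106 CPM (88.5 to 125) in the healthy library and at 251 CPM (151 to 392) at 12 weeks, from 19 UMIs in 17 cells, and 2 weeks lay between at 149 CPM (94.6 to 224). Ece1 in mixed cells was at 193 CPM (170 to 219) in the healthy library and at 344 CPM (258 to 450) at 2 weeks. Both were picked out because a signal outside the compared classes was above that of the control library. The difference was not tested.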

How the results depend on the processing

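Of 30 ratios past 1.5-fold, recomputed to 299 values under the alternatives, 294 stayed on the same side of 1 and 280 stayed past 1.5-fold. The ratios of the leading class to all others depended on how cells with markers of another lineage were treated. With the other lineage at 1/3 at most, Edn1 in ECs was 14.8-fold and Nos3 38.9-fold. With crude clusters in place of the gate, Edn1 was 3.58-fold, Ece1 3.77-fold, Ace in FBs 5.29-fold and Nos3 8.21-fold, and with no limit on another lineage, an alternative added after seeing the data, 4.28-fold, 4.13-fold, 5.24-fold and 9.74-fold. As a mean over cells, Edn1 was 8.66-fold. Leaving out each library in turn gave 3.20-fold to 11.6-fold for Edn1, 4.38-fold to 5.14-fold for Ece1, 10.8-fold to 28.3-fold for Ednra in SMCs, 4.07-fold to 10.4-fold for Ednrb and 5.77-fold to 7.76-fold for Ace. As a mean over cells, Ece1 in ECs was 1.54-fold at 2 weeks and 1.25-fold at 12 weeks, and Ace in FBs 1.61-fold at 12 weeks. With cluster shares of the healthy library, Ece1 in ECs was 1.53-fold at 2 weeks, and at 12 weeks Edn1 was 1.34-fold, Ece1 1.47-fold and Nos3 0.717-fold. The Ece1 value at 12 weeks rests on 2 endocardial-like cells and was 1.09-fold over clusters with at least 10 cells. Over these clusters Nos3 was 0.822-fold. Ratios reversed for Edn1 in SMCs at 2 weeks with the other lineage at 1/3 (0), for Ace in SMCs at 12 weeks with crude clusters (0.711) and with no limit (0.841), and for Ace in endocardial-like against capillary-like ECs with a marker-sum gate (0.931) and without the healthy library (0 to 2.83 over the libraries left out in turn). For arterial-like against capillary-like ECs, resolution 0.5 gave 32.3-fold for Edn1, 2.03-fold for Ece1, 11.6-fold for Ace and 1.57-fold for Nos3, and no integration gave 26.6-fold, 2.04-fold, 13.1-fold and 1.87-fold, with 0.258-fold for Ednrb. At resolution 0.5 and without integration, the arterial-like group held a cluster with Gkn3, Cytl1, Mgp and Clu among its leading genes. These genes led cluster 8 of the main clustering, which stays outside its arterial-like group. A marker-sum gate on the EC lists gave 2.45-fold for Ece1, 0.315-fold for Ednrb, 12.9-fold for Ace and 2.16-fold for Nos3. The arterial-like group had 780, 433 and 287 cells under these 3 alternatives, against 809 in the main clustering. The causes were not tested. Thinning to 1000 UMIs left out the shallower cells. The shares of cells with a UMI were then 5.71% for Edn1, 22.6% for Ece1 and 5.30% for Ednra. They were 6.09% for Ednrb, 23.4% for Ace and 10.0% for Nos3. Depth limits Agt and Agtr1a, and all classes at 12 weeks. No paired analysis was possible because each phase has 1 library.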
